A study of Mus musculus with 2 samples.

Results

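Transcript levels of 10 Notch signalling genes were read from total RNA of the gastrocnemius, the main calf muscle, of mouse pups. The genes were a listed set of 3 receptors (Notch1, Notch2, Notch3), 4 ligands (Dll1, Dll4, Jag1, Jag2) and 3 target genes (Hes1, Hey1, Heyl), out of 55536 Ensembl genes in the gene tables, and all 10 were found by symbol. Both samples were from B6CASTF1/J females aged 4 days, the F1 cross of C57BL/6J with CAST/EiJ. No treatment is named, and each sample gave 1 library from 300 ng of RNA depleted of ribosomal RNA. The design held 1 group of 2 libraries and no contrast, so the questions addressed were how high each gene stood, which members of each family prevailed and how far the libraries differed. The labels call them biological replicates 1 and 2 and number the tissue samples separately, but give a single donor record for both. They do not say whether each sample was 1 animal or a pool, or whether litters were shared, so the spread between libraries may be partly technical.

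Notch proteins are cell surface receptors that are activated by ligands on a neighbouring cell. Ligand binding leads to cleavage of the receptor by an ADAM protease and then by gamma-secretase, and the freed intracellular domain joins the DNA-binding protein RBPJ and a Mastermind coactivator to switch on target genes, above all repressors of the Hes and Hey families. In skeletal muscle the pathway is known for keeping satellite cells, the muscle stem cells, from differentiating, and in vessels for arterial identity, sprouting and the coat of mural cells (pericytes and smooth muscle).

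The libraries held 30961087 and 36246031 expected counts in replicates 1 and 2, and the 10 genes took between 281 and 6600 counts each. Replicate 2 had far fewer transcripts of bone and red cells and more of liver proteins. The 4 bone markers summed to 26.3 and 0.53 TPM (transcript abundance scaled for transcript length and library total), with Ibsp and Mmp13 at 0 counts in replicate 2, the 4 red cell markers to 1222 and 228 TPM, and the 4 liver markers to 6.30 and 68.2 TPM. Their part in the Notch gene values was not tested. Spp1, Sp7, Hemgn, Apob and Fga were likewise under 1 TPM in at least 1 library. As a check of the tissue, all 6 muscle fibre genes were present, with medians of 4037 and 4859 TPM.

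All 10 genes were detected, meaning 1 TPM or more in both libraries. Of all Ensembl genes 24% passed this level, and of protein-coding genes 54.8%, so detection alone is common for genes of this kind. Levels ran from 4.54 TPM for Hey1 to 27.84 TPM for Notch2. By mean TPM the order was Notch2, Notch3, Jag2, Notch1, Hes1, Heyl, Jag1, Dll1, Dll4 and Hey1. The set spanned the middle of the expressed genes, with Notch2 above 79.9% and Hey1 above 30.05% of the 13336 detected genes, whose median was 9.40 TPM. Of the 9 pairs of neighbours in this order, 2 had overlapping library values, namely Notch2 with Notch3 and Hes1 with Heyl, and these are not separated. For 2 values set against 2, the smallest p of an exact permutation test is 0.333 (two-sided). Genes were therefore compared by whether their library values overlapped, with no p-value.

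**Figure D1:**
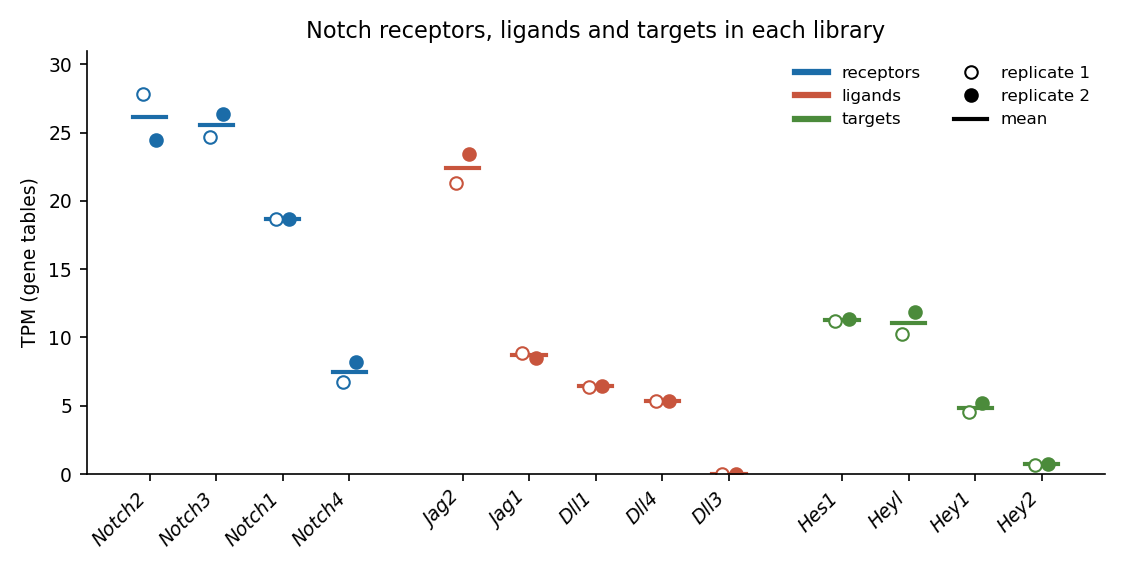
TPM of each gene in the gene tables (vertical axis, linear from 0), grouped into receptors, ligands and targets, with replicate 1 as open circles, replicate 2 as filled circles and the mean as a bar. The family members Notch4, Dll3 and Hey2 are drawn for comparison. Notch2 and Notch3 cross between the libraries, as do Hes1 and Heyl, and Jag2 stands above every other ligand in both.

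The receptor genes formed the most abundant family. Summed over Notch1, Notch2, Notch3 and Notch4 they reached 77.99 TPM in replicate 1 and 77.71 TPM in replicate 2, against 41.99 and 43.78 TPM for the 5 ligand genes and 26.74 and 29.22 TPM for Hes1, Hey1, Hey2 and Heyl.

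Notch2, a receptor known from vessel walls and from quiescent satellite cells, stood at 27.84 TPM in replicate 1 and 24.48 TPM in replicate 2, from 6434 and 6600 counts. Its mean was 26.2 ± 2.38 TPM (SD, n = 2), or 33.6% ± 2.97 of the receptor TPM. Notch3, known as the receptor of mural cells and also present in satellite cells, had 24.72 and 26.39 TPM from 5479 and 6533 counts, a mean of 25.6 ± 1.18 TPM and a share of 32.8% ± 1.60. Notch2 was the higher of the pair in replicate 1 and Notch3 in replicate 2, so their gene values overlap. Notch1, the receptor of many lineages including endothelium and satellite cells, had 18.67 and 18.66 TPM from 4129 and 4985 counts. It lay below Notch2 and Notch3 in both libraries, at 24.0% ± 0.0519 of the receptor TPM. The family member Notch4, known as an endothelial receptor, was the lowest at 6.76 and 8.18 TPM, a share of 9.60% ± 1.31.

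In genome build mm10, Notch1 lies on chromosome 2 (26457903 to 26516663, minus strand), Notch2 on chromosome 3 (98013527 to 98150361, plus strand) and Notch3 on chromosome 17 (32120820 to 32166852, minus strand). RefSeq windows of 250 bases before the start site were matched for 7 of the 10 genes (8 windows, since Dll1 has 2), and Hes1, Hey1 and Heyl were unmatched. The GC box GGGCGG, a motif of Sp-family factors, was read on both strands and stood in the windows of 5 of these genes (Notch1, Notch2, Notch3, Dll4 and Jag2), against 32.7% of all 32851 windows. The members' windows were also richer in G and C, with a median of 65.8% against 52.4% over all windows. A match describes the letters and is no evidence of binding. The windows of Notch1, Notch2 and Jag2 held 5 matches each. Shown here are those of Notch3, which had the highest full-length coding transcript level of the receptors, and of Dll4, the ligand of sprouting endothelium. Their GC boxes are given in capitals on either strand (RefSeq, GRCm38.p6, which is the mm10 assembly). The Notch3 stretch is chr17:32166891-32167140 on the minus strand with 4 matches, and the Dll4 stretch is chr2:119325534-119325783 on the plus strand with 2 matches, part of it within an exon of a noncoding gene on the opposite strand.
Notch3: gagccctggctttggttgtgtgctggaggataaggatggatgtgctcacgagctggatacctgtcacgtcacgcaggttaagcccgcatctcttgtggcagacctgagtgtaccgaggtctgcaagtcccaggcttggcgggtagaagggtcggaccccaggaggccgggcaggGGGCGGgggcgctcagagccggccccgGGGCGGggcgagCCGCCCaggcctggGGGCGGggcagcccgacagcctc
Dll4: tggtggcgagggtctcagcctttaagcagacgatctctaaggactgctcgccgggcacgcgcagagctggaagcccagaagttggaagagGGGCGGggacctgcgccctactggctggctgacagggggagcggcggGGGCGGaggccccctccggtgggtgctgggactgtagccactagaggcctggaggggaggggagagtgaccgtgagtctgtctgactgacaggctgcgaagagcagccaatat

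Among the ligands, Jag2 prevailed. Jag2, a Serrate-type ligand known for its part in limb and palate development, had 21.35 TPM in replicate 1 and 23.45 TPM in replicate 2, from 1793 and 2444 counts. It held 52.2% ± 1.92 of the TPM of the 5 ligand genes. Jag1, a ligand of vessel walls and of many epithelia, followed with 8.88 and 8.52 TPM from 1264 and 1425 counts, a share of 20.3% ± 1.19. Jag2 was thus well above Jag1 in both libraries, and no ligand value of one gene overlapped those of the next.

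The Delta-type ligands were lower. Dll1, needed in the fetus to maintain the pool of muscle progenitors, had 6.40 and 6.46 TPM from 500 and 628 counts, and Dll4 had 5.35 TPM in both libraries, from 546 and 620 counts. Dll1 held 15.0% ± 0.344 and Dll4 12.5% ± 0.368 of the ligand TPM. Dll3, a divergent Delta gene of the early embryo, had 1 count in replicate 1 and 0 in replicate 2 and was not detected. The ligand genes lie on chromosome 17 (Dll1, 15367354 to 15376872, minus strand), chromosome 2 (Dll4, 119325784 to 119335962, plus strand, and Jag1, 137081456 to 137116644, minus strand) and chromosome 12 (Jag2, 112907819 to 112929776, minus strand).

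Of the target genes, Hes1 and Heyl stood at the same level within their spread and Hey1 below them. Hes1, a basic helix-loop-helix repressor whose level oscillates in many progenitors, had 11.23 and 11.38 TPM from 385 and 463 counts, with a mean of 11.3 ± 0.106 TPM. Heyl, known from satellite cells and from vascular smooth muscle, had 10.28 and 11.87 TPM from 1066 and 1427 counts, with a mean of 11.1 ± 1.12 TPM. Hes1 was higher in replicate 1 and Heyl in replicate 2. Hey1, which acts beside Heyl in satellite cells and is also a gene of arterial endothelium, had 4.54 and 5.20 TPM from 281 and 346 counts, and its values did not overlap those of the other two. Its close relative Hey2, best known from heart and arteries, was under the detection level at 0.69 and 0.77 TPM. Shares of the target TPM were 40.5% ± 2.16 for Hes1, 39.5% ± 1.54 for Heyl, 17.4% ± 0.578 for Hey1 and 2.61% ± 0.0387 for Hey2. In mm10, Hes1 lies on chromosome 16 (30064384 to 30067796, plus strand), Hey1 on chromosome 3 (8663359 to 8667256, minus strand) and Heyl on chromosome 4 (123233556 to 123249875, plus strand).

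In the list of other Hes genes with Nrarp, Hes6 and Nrarp were expressed and the rest were near 0. Hes6, a Hes relative known to promote myogenic differentiation, had 11.57 and 12.05 TPM. Nrarp, a target whose product restrains Notch signalling, had 8.89 and 8.03 TPM. Hes5, the classical target in neural progenitors, had 2 and 3 counts, Hes7, the somite clock gene, had 3 and 7, and Hes2 and Hes3 had 0 in both libraries, where 0 counts allow up to 3 per library.

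The targets Hes1, Hey1 and Heyl had no window, so RBPJ motifs could be sought only before the receptor and ligand members. The RBPJ motif GTGGGAA was absent from all 8 of those windows, as was its shorter core TGGGAA, which the longer motif contains. Over all windows these were present in 5.42% and 21.6%. Among the 51 genes of the receptor, ligand, target and pathway lists with a window, 6 held GTGGGAA on either strand: Hes5, Hes7, Hey2, Lfng, Psen2 and Spen. Shown here are the stretches of Hey2 and Hes5, targets under the detection level in this muscle, and of Lfng, a receptor glycosyltransferase gene at 4.90 and 5.32 TPM, with the motif or its reverse complement TTCCCAC in capitals. The stretches are chr10:30842802-30843033 on the minus strand (1 match), chr4:154960673-154960922 on the plus strand (2 matches, part of it within a noncoding exon) and chr5:140607091-140607319 on the plus strand (1 match), trimmed where an exon of a coding gene begins. Genes at very different levels thus carried the motif, and the windows cover only the stretch just before the start.
Hey2: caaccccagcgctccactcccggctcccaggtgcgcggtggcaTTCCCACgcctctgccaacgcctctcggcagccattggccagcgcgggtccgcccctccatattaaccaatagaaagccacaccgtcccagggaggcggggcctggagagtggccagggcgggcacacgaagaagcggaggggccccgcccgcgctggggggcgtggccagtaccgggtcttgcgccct
Hes5: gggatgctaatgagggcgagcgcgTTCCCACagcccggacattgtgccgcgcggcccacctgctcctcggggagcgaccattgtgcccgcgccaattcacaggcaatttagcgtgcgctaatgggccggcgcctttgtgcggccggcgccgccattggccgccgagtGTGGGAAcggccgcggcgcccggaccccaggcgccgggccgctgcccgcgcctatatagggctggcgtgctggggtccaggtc
Lfng: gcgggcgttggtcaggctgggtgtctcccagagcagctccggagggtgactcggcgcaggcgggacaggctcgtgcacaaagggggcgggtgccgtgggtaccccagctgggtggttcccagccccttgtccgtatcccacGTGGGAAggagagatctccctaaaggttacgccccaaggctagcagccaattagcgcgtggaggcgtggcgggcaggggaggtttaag

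The split into transcripts changed some of these orders. The longest coding transcript of each member took on average 92.0% or more of the gene's expected counts, but less of its TPM, because a few counts on short transcripts weigh heavily once divided by length. Notch3-201, of 8016 bases, took 99.1% ± 1.21 of the Notch3 TPM, and Dll4-201 took 100% in both libraries, with Dll4-202 at 0. Jag2 was at the other end, where Jag2-201 (5106 bases) held 57.8% ± 4.39 of the TPM though 92.0% of the counts. The rest of Jag2 was spread over 9 short transcripts, among them 5 models with a retained intron, which took 25.04% and 15.3% of the TPM, and Jag2-209, a coding fragment of 742 bases with 12.8% ± 2.52. Notch2-202, a retained-intron model of 1896 bases, took 23.6% ± 1.89 of the Notch2 TPM. In the other genes with a second transcript above 0 it was a smaller part: Dll1-204 held 12.4% ± 5.26, Heyl-202 12.4% ± 0.594, Notch1-205 8.58% ± 1.82, Hes1-204 8.53% ± 0.869, Jag1-202 8.07% ± 3.10, Hey1-203 5.09% ± 0.972 and Notch3-203 0.473% ± 0.670. All of these are models with a retained intron or without a coding sequence.

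By the longest coding transcript alone, Notch3 led the receptors in both libraries. Notch3-201 stood at 24.72 and 25.95 TPM, Notch2-201 at 20.90 and 19.04, and Notch1-201 at 14.85 and 16.09, so these 3 did not overlap, unlike the gene values of Notch2 and Notch3. Jag2 remained the leading ligand on this measure, with 11.66 and 14.28 TPM for Jag2-201 against 7.96 and 8.01 for Jag1-201, but its share of the ligands was 41.1%. Dll4-201 (5.35 TPM in both) and Dll1-201 (4.83 and 5.51 TPM) overlapped. Hes1-201 had 9.50 and 10.20 TPM and Heyl-201 8.43 and 9.99, again overlapping, and Hey1-201 had 4.20 and 4.44.

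In the other deposited quantification every member had a higher TPM, by 1.46-fold to 2.17-fold. Jag2 was raised most and led all 10 genes there, with 46.8 and 50.3 TPM. Notch3 had 40.1 and 40.2 TPM, Notch2 40.6 and 35.7 and Notch1 28.0 and 27.3, so that Notch2 and Notch3 overlapped there as in the gene tables. Hes1 (17.2 and 18.5) and Heyl (17.3 and 18.2) overlapped there too. Within Jag2, 43.4% of that TPM came from Jag2-201 and 19.3% from Jag2-205, a noncoding model of 750 bases. The lead of Jag2 over the other ligands therefore held on all 3 measures, while its place relative to the receptors did not.

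**Figure D2:**
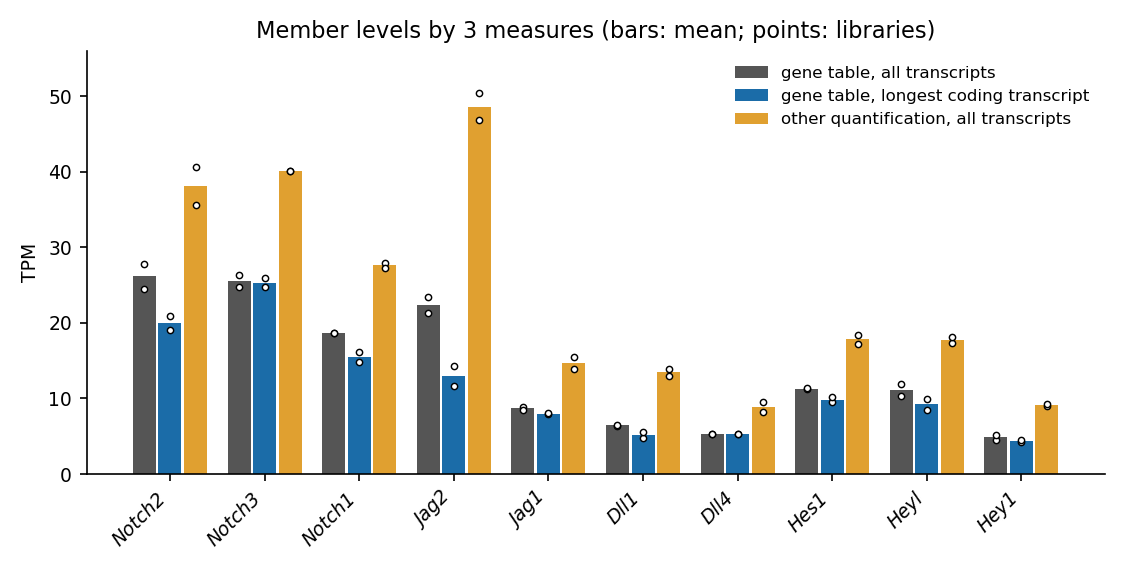
Level of each gene (TPM, linear axis from 0) as the gene-table sum over all transcripts (grey), as the longest coding transcript alone in the transcript table that goes with it (blue) and as the sum in the other quantification (orange). Bars are means over both libraries and points the libraries. Jag2 shows the widest range of the 10, from 13.0 TPM for the coding transcript to 48.6 TPM in the other quantification, while Notch3 is nearly the same on the first pair of measures (25.6 and 25.3 TPM).

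The libraries resembled each other for these genes. With scaling by edgeR's trimmed mean of M values, the log2 ratio of replicate 2 over replicate 1 ran from -0.14 for Notch2 to 0.27 for Jag2, and 0 of the 10 were over 2-fold apart. Among the 12257 genes averaging 100 or more counts, 0.71% exceeded that difference, so 0 among 10 is what the background gives. Since 1 library stands against 1, these ratios carry no p-value. With 8 genes higher and 2 lower in replicate 2, their median was 0.09, beside 0.02 over all 12257 genes, whose quartiles were -0.10 and 0.13.

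Within this narrow range, counting error alone (exact 95% binomial intervals) spanned 0 for 5 genes and did not for the other 5. The share of all genes whose interval excludes 0 was not computed, so whether this split is particular to the members cannot be said. The split depends on depth, since Notch3 (5479 and 6533 counts) excluded 0 at a smaller ratio than Dll1 (500 and 628 counts), which did not. Jag2 had a log2 ratio of 0.27 (interval 0.18 to 0.36) and Heyl 0.24 (0.13 to 0.36), both higher in replicate 2 also with spike-in scaling. Notch2 was at -0.14 (-0.19 to -0.09), Notch1 at 0.09 (0.04 to 0.15) and Notch3 at 0.08 (0.02 to 0.13). Hes1 (0.09), Hey1 (0.12), Dll1 (0.15), Dll4 (0.01) and Jag1 (-0.004) had intervals that held 0. Scaling by spike-ins moved the median of all genes from 0.02 to -0.12 and gave 3 members higher and 7 lower, with Notch1 at -0.05, Notch3 at -0.06, Hes1 at -0.05, Hey1 at -0.02 and Dll4 at -0.13. Another scaling moves all genes by the same amount, so the differences among members were the same. Such intervals cover counting only, and the biological coefficient of variation between the libraries over genes averaging 10 or more counts was 0.127.

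**Figure D3:**
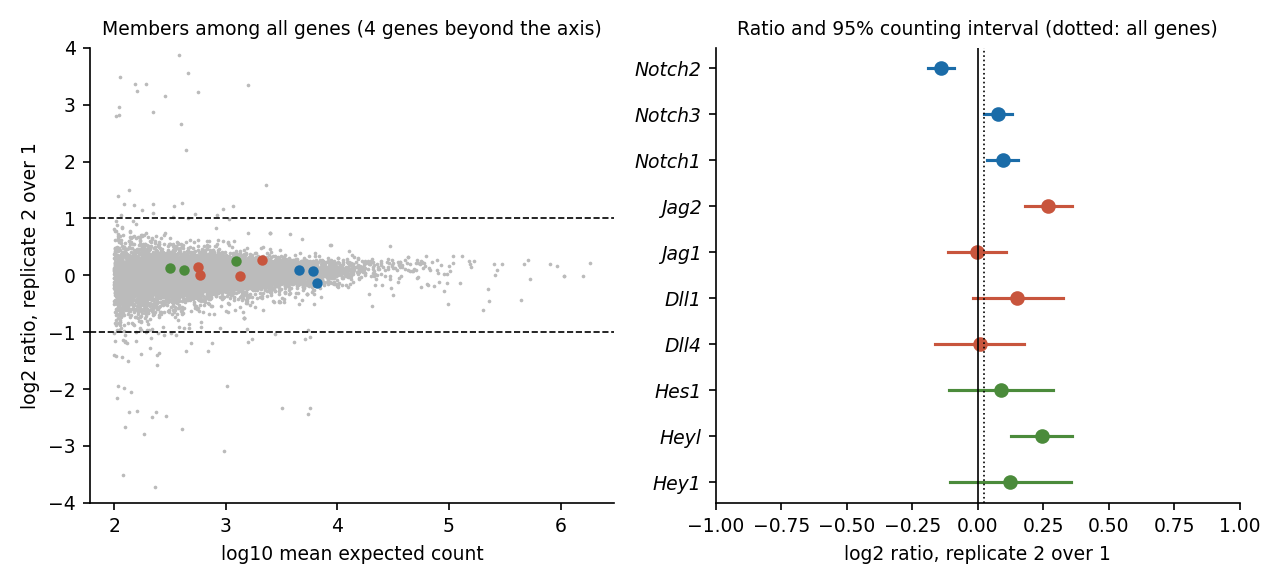
Left, log2 ratio of replicate 2 over replicate 1 against the log10 mean expected count for genes averaging 100 or more counts (grey; 4 lie beyond the axis), with the members in colour (blue receptors, red ligands, green targets) and dashed lines at 2-fold. Right, each member's ratio with its exact 95% counting interval, a solid line at 0 and a dotted line at the median of all genes (0.02); Jag2 and Heyl lie furthest to the right and Notch2 is the one whose interval lies below 0.

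Markers of the cell types in which these genes are known were all detected, so the data do not single out a source. In bulk tissue, fewer cells of a type and less RNA per cell cannot be told apart. The 8 endothelial markers summed to 256 and 242 TPM, with a median log2 ratio of 0.12, and the 4 arterial markers to 23.0 and 26.8 TPM, with a median of 0.12. The 8 mural markers summed to 310.1 and 316 TPM (median log2 ratio 0.03) and the 8 satellite cell markers to 150 and 153 TPM (0.12). Fibre markers summed to 33796 and 40132 TPM and were higher in replicate 2 in 6 of 6 cases (0.24), fibroblast markers to 3307 and 2501 TPM and were lower in 4 of 4 (-0.14). Schwann cell markers (141 and 201 TPM, median 0.38) were higher in 3 of 4 and macrophage markers (57.4 and 56.5 TPM, median 0.01) in 2 of 4. Endothelial markers were higher in replicate 2 in 6 of 8 cases, arterial markers in 3 of 4, mural markers in 5 of 8 and satellite cell markers in 6 of 8. Beside these, 8 of the 10 Notch genes were higher in replicate 2 and 2 lower. With spike-in scaling 3 were higher and 7 lower, and the share of all genes higher in replicate 2 was not computed. The part of any of these cells in the Notch gene ratios was not tested.

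The levels of single markers were spread widely within each list. Endothelial markers ran from Erg (8.87 and 8.49 TPM) to Cdh5 (62.20 and 67.32 TPM) and Egfl7 (77.07 and 50.90 TPM), a range that held 7 of the 10 Notch genes, with Dll1, Dll4 and Hey1 below it. Mural markers ran from Kcnj8 (8.04 and 8.10 TPM) to Rgs5 (45.16 and 48.97 TPM) and Acta2 (141.46 and 144.87 TPM), and again 7 genes lay inside and the same 3 below. Arterial markers ran from Gja5 (2.29 and 3.52 TPM) to Gja4 (6.89 and 7.52 TPM) and Efnb2 (8.05 and 10.92 TPM). This range held Dll1, Dll4, Jag1 and Hey1 in both libraries and Heyl in replicate 1, while Notch1, Notch2, Notch3, Jag2 and Hes1 were above it. Satellite cell markers ran from Calcr (1.53 and 1.82 TPM) to Cdh15 (22.38 and 25.22 TPM) and Itga7 (58.01 and 60.57 TPM), and all 10 genes lay inside. By mean TPM, Calcr stood above 6.73% and Itga7 above 91.3% of the detected genes, so most detected genes lie between them too. Notch3 was above Cdh15 in both libraries and Notch2 in replicate 1, so their place inside rests on Itga7. Erg stood above 47.36% of the detected genes by mean TPM, and Cdh5, the highest endothelial marker by mean, above 92.04%. Kcnj8 stood above 44.99% and Acta2 above 96.51%, and Gja5 above 17.47% and Efnb2 above 50.35%. Many detected genes thus lie inside the endothelial, mural and arterial ranges too, and the exact shares were not computed. Jag1 (8.88 and 8.52 TPM) was only just above Erg (8.87 and 8.49 TPM). All 10 Notch genes were below the lowest fibre marker value of 168 TPM, that of Ryr1 in replicate 1. Ryr1 stood above 97.1% of the detected genes by mean TPM, so nearly all detected genes lie below it too. A like level is no evidence of a shared source.

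Most genes of the machinery that carries the signal were expressed. Of 52 further pathway genes 44 were detected, beside 54.8% of all protein-coding genes, and 44 averaged 100 or more counts. None of these, 0 of 44, exceeded a 2-fold difference; their median log2 ratio was 0.02, with 24 above 0 and 20 below. In the nucleus Rbpj, the DNA-binding partner of all 4 receptors, was above Notch2 and Notch3 in the other quantification (57.7 and 62.6 TPM). In the gene tables it was close to them, at 26.01 and 21.82 TPM. The cofactor gene Snw1 had 24.13 and 21.51 TPM and the histone acetyltransferase gene Ep300 15.49 and 16.13 TPM. The Mastermind coactivator genes were lower, with Maml1 at 7.55 and 6.91, Maml2 at 3.12 and 3.16 and Maml3 at 3.06 and 2.50 TPM. Among the corepressor genes, Ncor1, which serves many other factors too, had 74.08 and 65.05 TPM and Hdac1 15.72 and 16.26 TPM, with Cir1 the lowest of its list (6.47 and 6.30 TPM).

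For receptor cleavage, the sheddase genes Adam10 (23.60 and 23.32 TPM) and Adam17 (13.20 and 14.79 TPM) and the processing protease gene Furin (30.61 and 28.48 TPM) were present. Of the 7 gamma-secretase genes 6 were detected, led by Psenen (33.27 and 39.75 TPM), Aph1a (32.78 and 35.24 TPM) and nicastrin, Ncstn (24.45 and 24.28 TPM). Aph1c was under the detection level at 0.24 and 0.31 TPM. Aph1b and Aph1c are near-identical copies, so their split is uncertain.

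Genes that modify receptors and ligands were also detected in full. The O-fucosyltransferase gene Pofut1 had 17.49 and 18.09 TPM and the O-glucosyltransferase gene Poglut1 5.19 and 4.92 TPM. The 3 Fringe genes, whose products shift receptors between Delta and Jagged ligands, were low and close together, with Lfng at 4.90 and 5.32, Mfng at 4.59 and 4.49 and Rfng at 3.69 and 3.21 TPM. Of the ligases that make ligands active, Mib1 led with 25.73 and 23.69 TPM, above Neurl1a (10.41 and 11.90), Mib2 (7.97 and 9.98) and Neurl1b (6.37 and 6.47). Among the negative regulators the ubiquitin ligase gene Nedd4, which has many substrates, had 328.59 and 341.23 TPM, far above Dtx3 (20.58 and 16.90) and Fbxw7 (16.01 and 16.13), the ligase of the intracellular domain. Dtx1, itself a Notch target in lymphocytes, was under the detection level at 0.60 and 0.38 TPM. Dlk1, a noncanonical Notch ligand gene imprinted in the mouse, exceeded every member with 1397 and 1616 TPM, while Dlk2 (0.76 and 0.58 TPM) and Dner (0.69 TPM in both) were not detected. Egfl7, which is on the list of noncanonical ligands as well as that of endothelial markers, also exceeded every member, with 77.07 and 50.90 TPM.

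**Figure D4:**
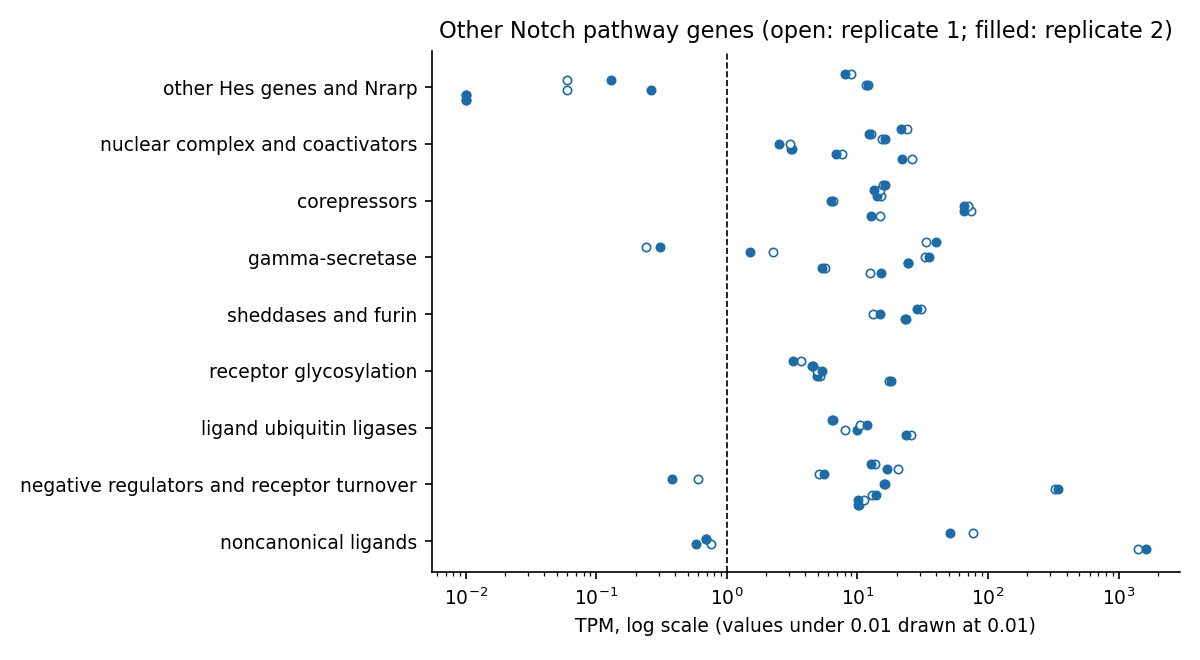
TPM of the 52 other Notch pathway genes on a log axis, 1 row of points per list, with replicate 1 open, replicate 2 filled and the detection level of 1 TPM dashed. Points at 0 are drawn at the left edge. Dlk1 and Nedd4 stand above all other genes, and 4 Hes genes, Aph1c, Dtx1, Dlk2 and Dner lie below the line.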

How the data were processed

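Total RNA from 2 gastrocnemius samples of 1 group was measured. Per the file headers and accompanying notes, the authors deposited gene and transcript tables (mm10, GENCODE M21) with expected counts, which are estimated and not always whole, and TPM, computed from transcriptome alignments. A separate transcript table per library with estimated counts and TPM was also deposited by the authors; it was summed per gene and is called the other quantification. For the aligner, both quantification programs and the use of strand, names were not given in the sources used here; CAST/EiJ reads were counted on a C57BL/6J reference.

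Symbols came from the separate transcript table, joined by gene ID and checked against GENCODE M21. TPM were used as deposited. After rounding of expected counts, edgeR 4.0.16 under R 4.3.3 gave scaling factors from genes averaging 10 or more counts and log2 ratios with a prior count of 2, tested on simulated data. Exact 95% intervals reflect counting error alone, and may be too narrow even for that, because without molecular identifiers reads may repeat a molecule. The SD over 2 libraries is the error given; p-values were not computed. Alternatives tried were scaling by DESeq2 1.42.0, library size or spike-ins, other minimums and prior counts, the other quantification, TPM rescaled after removal of spike-in and mitochondrial rows, each library left out and, chosen after seeing the data, the longest coding transcript alone and transcript shares by count. All members and each receptor, ligand and target gene are named, with the 3 highest, the lowest and undetected genes of each pathway list, the leading 2 transcripts of each member, and the 2 highest genes of the vessel and satellite cell marker lists, with the lowest added after their values were seen (other marker lists are given as sums, with undetected genes); other genes were named after their values were seen, and some genes of the pathway lists are not reported here. The members and lists were chosen with earlier results of these data known. Python 3.11.15 with pandas 2.3.3, scipy 1.17.1 and matplotlib 3.10.9 did the rest.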

Additional observations from a re-analysis of the deposited data

How the results depend on the processing

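All 10 genes were detected in the other quantification, with rescaled TPM, by the longest coding transcript and in either library alone, and 9 of 10 at a level of 5 TPM, where Hey1 was lost. The share of all genes that pass 5 TPM was not computed. Poglut1, with a mean of 5.055 TPM, stood above only 31.1% of the detected genes, so most detected genes exceed 5 TPM on average. No scaling, count minimum, prior count or quantification put a member over 2-fold apart. The median log2 ratio of the members was 0.09 and lay between 0.04 and 0.10 under the alternatives other than spike-in scaling, which gave -0.049. The Notch2 share of the receptor TPM was 33.6%, between 31.5% and 35.7% in single libraries and 30.3% by the longest coding transcript, where Notch3 led in both libraries; in the other quantification Notch3 had the higher mean, but the 2 genes overlapped. The Jag2 share of the ligand TPM was 52.2%, between 50.8% and 53.6% in single libraries, 45.7% by expected counts, 56.6% in the other quantification and 41.1% by the longest coding transcript. The Hes1 share of the target TPM was 40.5%, between 38.9% and 42.0% in single libraries and 20.9% by expected counts, where the longer Heyl held 61.0%. TPM without spike-ins and mitochondrial genes were 1.10-fold higher for all 10. Leaving out a library gives no ratio, so that was not run. Depth limits Hey1 most, whose 281 counts in replicate 1 have an exact 95% Poisson interval of 249 to 316.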

Other observations

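Genes that overlap the members on the mm10 annotation took few counts. Of 9 such genes, 5 lie on the opposite strand, at Notch1, Notch3, Dll1 and Dll4. Among these, the long noncoding gene A930024N18Rik, which covers 1873 bases at the Dll1 start, had 44 and 66 counts in replicates 1 and 2 against 500 and 628 for Dll1, and 0610009E02Rik at the Notch1 end had 14 and 12. Gm17276, which lies across 21024 bases of Notch3 in antisense, had 5 and 4 counts. Gm14207 at the Dll4 start had 4 and 9. Within the span of Notch2 on the same strand, Gm42819 had 181 and 147 counts and Gm42820 88.5 and 74.1, both lower in replicate 2. Whether counting used strand is not stated in those sources, so the division of reads between these genes and the members is uncertain.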
